A study of Mus musculus with 4 samples.

Results

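The 9 genes described here encode the chromatin-looping factor CTCF and the core of the cohesin machinery. They are the ring subunit genes Smc1a, Smc3 and Rad21, the ring-bound subunit genes Stag1 and Stag2, the loader gene Nipbl, the regulator genes Pds5a and Pds5b, and Ctcf itself. They were chosen by gene symbol, and all 9 were found among the 23420 rows of the count tables and passed the filter on low counts. The cells, of the large pre-B stage, are a mouse line without Irf4 and Irf8 in both groups, grown on the OP9 stromal feeder line with interleukin 7 and infected with a retrovirus that carried GFP and a short hairpin RNA. The shMyb group received a hairpin against Myb, a transcription factor gene of blood progenitors, and the shLuc group a control hairpin against luciferase. Each group had 2 libraries, from GFP-positive cells sorted 72 hours after transduction. Both duplicates of a group are sets of wells of this 1 line. The p-values therefore take in the spread between sets of wells, not that between lines or animals.

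Cohesin is a ring-shaped complex that extrudes loops of chromatin and holds sister chromatids together. Nipbl loads it and drives extrusion, Pds5 proteins and Wapl release it, and CTCF bound to DNA stops it, so that loops end at CTCF sites. In developing B cells these loops fold the antigen receptor loci and bring distant gene segments near the recombination centre, and in dividing pre-B cells the same ring is needed for chromosome segregation.

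Total counts were 38318335 and 36573743 in the libraries labelled shMyb and 40701550 and 44682954 in shLuc. Myb itself was not lower where its hairpin was used. It stood at 617 and 639 CPM (counts scaled to TMM-adjusted library size) in the libraries labelled shMyb, against 616 and 600.2 CPM in shLuc, a log2 fold change of 0.05 (SE 0.04, edgeR adjusted p = 0.283), without overlap. All directions given below hold for libraries as labelled. With library totals alone, and after correction for expression level or for GC content and length, Myb was called higher in those labelled shMyb. The 12 B-lineage markers summed to 8550 and 8310 CPM in the libraries labelled shMyb and 9240 and 9430 CPM in shLuc. Of 14 stromal markers 12 were tested, with 3 called higher and 2 lower (30.6% and 31.7% of all tested genes). The 14 summed to 115 and 119 CPM in the libraries labelled shMyb and 85.1 and 67.0 CPM in shLuc. Thy1 held the largest share of the sum in those labelled shMyb (62.6 and 58.8 CPM, against 12.9 and 11.7 CPM in shLuc). The 3 stromal markers called higher were Thy1, Sparc and Postn. Fn1 (6.96 and 7.40 CPM, against 22.7 and 18.6 CPM in shLuc) and Cxcl12 (0.411 and 0.692 CPM, against 1.90 and 1.93 CPM) were the 2 called lower. Of the 11 myeloid markers counted 5 were tested, with 4 called higher and 0 lower, beside the same shares of all tested genes. The 11 summed to 7.34 and 8.20 CPM against 4.10 and 3.40 CPM, with Elane and Ctsg at 0. The 7 T cell markers stayed below 0.83 CPM in sum, with Cd4, Cd8a and Cd8b1 at 0. The part of other cells in the differences below was not tested. In such bulk samples fewer cells of a type and less RNA per cell cannot be told apart.

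The genes of CTCF and of the cohesin ring stood at nearly the same level in both groups. Of the 9 genes, Stag1 was called higher (edgeR quasi-likelihood test, Benjamini-Hochberg adjusted p below 0.05), Ctcf and Rad21 were called lower, and 6 did not pass. Over all 12610 tested genes 62.2% were called, 30.6% as higher and 31.7% as lower. The split depends on the scaling, at 4 higher and 0 lower with library totals, 7 and 0 after correction for expression level, and 3 and 0 after correction for GC content and length. Without shMyb replicate 2 it was 2 and 0, without shLuc replicate 2 it was 1 and 0, and without shMyb replicate 1 it was 2 and 1. The median log2 fold change of the 9 genes was 0.05 and its median size 0.08, against 0.00 and 0.24 over all tested genes. With Nipbl set aside, the members differed by at most 9.12% under TMM scaling. After the expression correction the median of the 9 genes was 0.18, with Stag1 at 0.26, Smc3 at 0.23 and Stag2 at 0.20, while the median of all tested genes was 0.08. Among the 2402 tested genes from 100 to 700 CPM, the range in which all 9 genes lie, 72.4% were called and the median size of the log2 fold change was 0.18. The groups did not overlap for 6 of the 9 genes, against 82.1% of all tested genes. Smc3, Stag1, Stag2 and Nipbl lay higher without overlap, against 41% of tested genes, and Ctcf and Rad21 lower, against 41.2%.

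**Figure D1:**
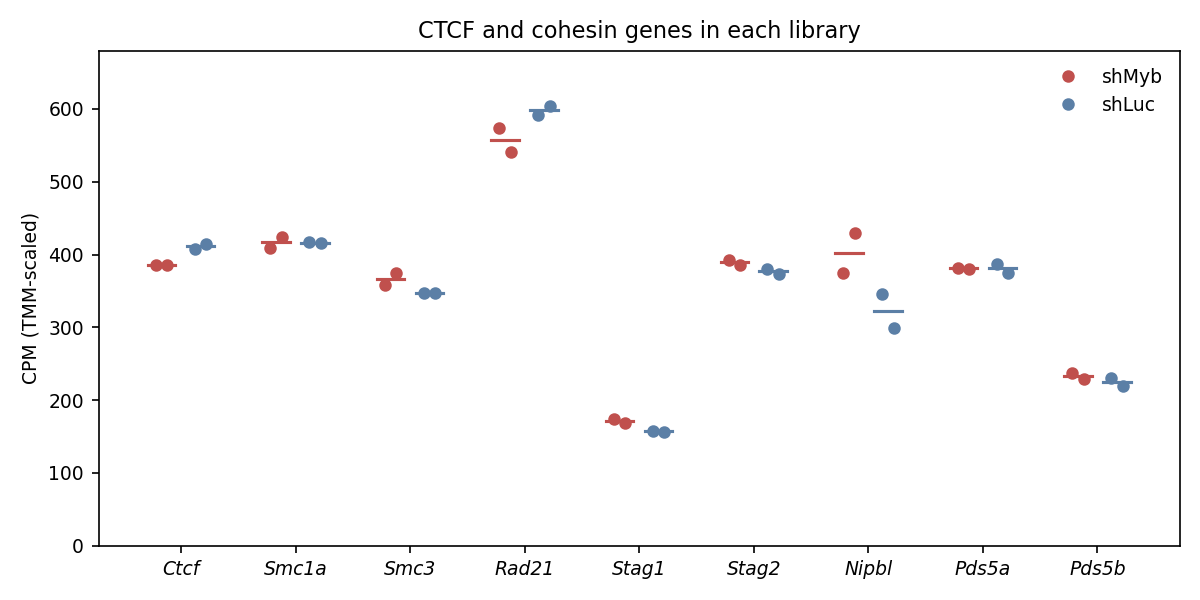
Level of the 9 CTCF and cohesin genes in TMM-scaled CPM (vertical axis, from 0), with 1 point per library and a bar at the mean of 2 libraries, shMyb left and shLuc right. Rad21 is at 541 to 604 CPM and Stag1 at 156 to 174 CPM in all 4 libraries, and the 2 libraries of a group lie farthest apart for Nipbl.

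The sequence before the start site is shown for the called genes Ctcf and Stag1, for Smc1a, whose promoter held the sole MYB match among the members, and for Wapl. RefSeq promoter sequences (GRCm38.p6) were found for 6 of the 9 genes and for Wapl. The windows are the 250 bases before the start, as chr8:105636288-105636537 (plus) for Ctcf, chr9:100643198-100643447 (plus) for Stag1, chrX:152016178-152016427 (plus) for Smc1a and chr14:34673678-34673927 (plus) for Wapl. Capitals mark matches to CAACNG or TAACNG (the MYB motif) or to TTTCCCGC, TTTGGCGC, TTTCGCGC or TTTGCCGC (the E2F motif), on either strand.
Ctcf: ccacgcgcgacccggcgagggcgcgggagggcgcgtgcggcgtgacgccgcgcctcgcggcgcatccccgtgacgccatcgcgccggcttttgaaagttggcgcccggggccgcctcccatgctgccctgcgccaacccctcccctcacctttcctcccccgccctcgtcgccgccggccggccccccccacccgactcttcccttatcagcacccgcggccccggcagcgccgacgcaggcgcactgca
Stag1: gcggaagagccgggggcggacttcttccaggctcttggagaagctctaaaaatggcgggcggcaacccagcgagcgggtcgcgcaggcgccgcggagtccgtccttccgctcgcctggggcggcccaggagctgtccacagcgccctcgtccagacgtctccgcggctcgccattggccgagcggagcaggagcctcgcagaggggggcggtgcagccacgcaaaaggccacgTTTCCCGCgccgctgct
Smc1a: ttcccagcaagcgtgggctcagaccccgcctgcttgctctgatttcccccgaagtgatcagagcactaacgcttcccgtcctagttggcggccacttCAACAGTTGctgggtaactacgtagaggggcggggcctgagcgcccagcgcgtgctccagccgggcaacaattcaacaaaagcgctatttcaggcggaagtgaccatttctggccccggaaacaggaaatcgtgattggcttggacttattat
Wapl: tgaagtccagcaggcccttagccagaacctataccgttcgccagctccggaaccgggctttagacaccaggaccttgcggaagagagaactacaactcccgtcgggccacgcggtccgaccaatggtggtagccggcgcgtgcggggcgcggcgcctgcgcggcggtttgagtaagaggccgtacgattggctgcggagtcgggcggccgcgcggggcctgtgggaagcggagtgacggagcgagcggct
A MYB match stood in 1 of the 6 promoters, that of Smc1a, where CAACAG on the plus strand and CAGTTG (read on the minus strand) overlap between 153 and 145 bases before the start. Over 32851 promoter windows of the same length, 43.1% held a MYB match. An E2F match stood in 2 of the 6, Stag1 (17 to 10 bases before the start) and Pds5a, against 1.86% of all windows. The windows of Stag1 and Pds5a are 71.2% and 80.4% G or C, and the windows behind the 1.86% were not matched for this. Smc1a, with the MYB match, had a log2 fold change of 0.00. Of the genes with an E2F match, Pds5a was at -0.001 and Stag1 at 0.13. Ctcf and Wapl had neither match in these windows. The start used for Stag1 lies inside the GENCODE gene model, and the matches are letters and not measured binding.

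The SMC subunits are the long coiled-coil arms of the ring, and Rad21 is the kleisin that closes it. Smc1a (chromosome X, 152016428 to 152062694, plus strand) was at 409.6 and 424 CPM in the libraries labelled shMyb, against 417 and 415 CPM in shLuc. Smc3 (chromosome 19, 53600398 to 53645833, plus strand) was at 358 and 375 CPM, against 348 and 347 CPM. The groups overlapped for Smc1a, at a log2 fold change of 0.00 (95% interval -0.07 to 0.08, adjusted p = 0.965), and 99.3% of tested genes had a larger change; after the expression correction Smc1a was called higher (0.17). Smc3 was higher in both libraries labelled shMyb than in both of shLuc, but at 0.08 (95% interval 0.00 to 0.15, adjusted p = 0.067) it did not pass. With library totals alone (0.14), with the 1 CPM filter (0.09), after correction for expression level (0.23) or for GC content and length (0.10), and without shMyb replicate 1 (0.11), Smc3 was called higher.

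Rad21 (chromosome 15, 51962240 to 51991747, minus strand) was at 574 and 541 CPM in the libraries labelled shMyb and 592 and 604 CPM in shLuc. Both values of the libraries labelled shMyb lie below both shLuc values. It fell by 0.10 on the log2 scale (SE 0.04, edgeR adjusted p = 0.0239). The call ended with library totals alone (-0.04), after the GC and length correction (-0.06), without shMyb replicate 2 (-0.06, adjusted p = 0.277) and without shLuc replicate 2 (-0.10, adjusted p = 0.095). Once the expression trend was removed its direction turned, at 0.10 (adjusted p = 0.0142).

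Stag1 and Stag2 encode alternative subunits that bind the ring through Rad21 and contact CTCF. Stag1 (chromosome 9, 100597798 to 100959375, plus strand) was at 174 and 168 CPM in the libraries labelled shMyb and 157 and 156 CPM in shLuc. The groups did not overlap, and the log2 fold change was 0.13 (SE 0.04, edgeR adjusted p = 0.00446), or 9.12%. Its direction was the same under all 16 alternatives (0.09 to 0.26), while the call ended without shMyb replicate 1 (0.09, adjusted p = 0.0593), without shLuc replicate 1 (0.11, adjusted p = 0.0526) and without shLuc replicate 2 (0.11, adjusted p = 0.0505). Stag2 (chromosome X, 42149317 to 42277185, plus strand) was at 392 and 386 CPM, against 380.3 and 374 CPM. Its groups did not overlap either, yet at 0.05 (95% interval -0.03 to 0.12, adjusted p = 0.273) it did not pass, and it was called higher with library totals (0.11) and after the expression correction (0.20).

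Nipbl, the cohesin loader, had the largest fold change of the 9 genes and the largest spread between replicates. Nipbl (chromosome 15, 8290617 to 8444463, minus strand) was at 375 and 429.8 CPM in the libraries labelled shMyb and 346 and 299.7 CPM in shLuc. Both values of the libraries labelled shMyb exceed both shLuc values. At a log2 fold change of 0.32 (SE 0.12; 95% interval -0.11 to 0.75) Nipbl did not pass, with an edgeR adjusted p of 0.132. The replicates of shMyb differed by 0.20 and those of shLuc by 0.21 on the log2 scale, while for the other 8 genes they differed by at most 0.09. The call depends on the setting, since Nipbl was called higher under 11 of the 16 alternatives. With robust=FALSE, which does not give genes of unusual spread a variance of their own, the edgeR adjusted p was 4.6e-04 at the same fold change, and DESeq2 (0.0442), limma-voom (4.1e-04) and the fit with no low-count filter (6.3e-09) called it too. Leaving out single libraries gave fold changes of 0.41 (shMyb replicate 1), 0.22 (shMyb replicate 2), 0.40 (shLuc replicate 1) and 0.21 (shLuc replicate 2) on the log2 scale. These fits are among the 11. Each drops the spread between the replicates of 1 group, so their calls add no support.

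Other transcripts shared the replicate pattern of Nipbl, which was searched for after its values were seen. Among the 8645 genes that averaged 10 CPM or more, 96 (1.11%) were higher in shMyb replicate 2 than 1 and in shLuc replicate 1 than 2, by over 0.15 on the log2 scale each time, and Nipbl was the 1 member among them. Malat1 and Neat1, long non-coding RNAs retained in the nucleus, were among these genes and were picked by name. Neither was called (edgeR adjusted p = 0.123 and 0.328). Malat1 was at 913 and 1109 CPM in the libraries labelled shMyb and 581 and 346 CPM in shLuc. Neat1 was at 209.5 and 265 CPM, against 209.4 and 160.1 CPM. The part of nuclear RNA content in the values of Nipbl was not tested.

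Pds5a and Pds5b encode paired regulators that sit on the ring and can either help release it or protect it. Pds5a (chromosome 5, 65605721 to 65698273, minus strand) was at 381 and 381 CPM in the libraries labelled shMyb and 388 and 375 CPM in shLuc. Pds5b (chromosome 5, 150673739 to 150810690, plus strand) was at 238 and 229.6 CPM, against 230.4 and 220.0 CPM. The groups overlapped for both. The log2 fold changes were 0.00 (95% interval -0.08 to 0.07) for Pds5a and 0.05 (-0.02 to 0.13) for Pds5b, with adjusted p of 0.986 and 0.223. Pds5a was called higher after the expression correction (0.16), and Pds5b after it (0.18) and with library totals (0.12).

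Ctcf (chromosome 8, 105636568 to 105682922, plus strand) encodes the zinc finger protein that marks loop ends. It was at 385 and 386 CPM in the libraries labelled shMyb, from 15006 and 14489 counts, and at 408 and 414 CPM in shLuc, from 16296 and 18044 counts. The groups did not overlap. Ctcf fell by 0.09 on the log2 scale (SE 0.04, edgeR adjusted p = 0.0272), and 78.1% of tested genes had a larger change. The call ended with library totals (-0.03), after the GC and length correction (-0.06) and without shMyb replicate 1 (-0.10, adjusted p = 0.0662), shMyb replicate 2 (-0.10, adjusted p = 0.0714) or shLuc replicate 2 (-0.09, adjusted p = 0.109). After the expression correction Ctcf stood at 0.07 (edgeR adjusted p = 0.0726), where the median of all tested genes was 0.08. Exons of Ctcf overlap the opposite-strand genes Agrp and Gm5914 over 2.35% and 7.61% of their length, and Agrp had 5 and 6 counts in the libraries labelled shMyb and 3 and 3 in shLuc. Opposite-strand gene models also overlap 0.338% of the exons of Stag2 (Gm37564) and 1.32% and 0.615% of those of Pds5a (Gm42727 and Gm42729).

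**Figure D2:**
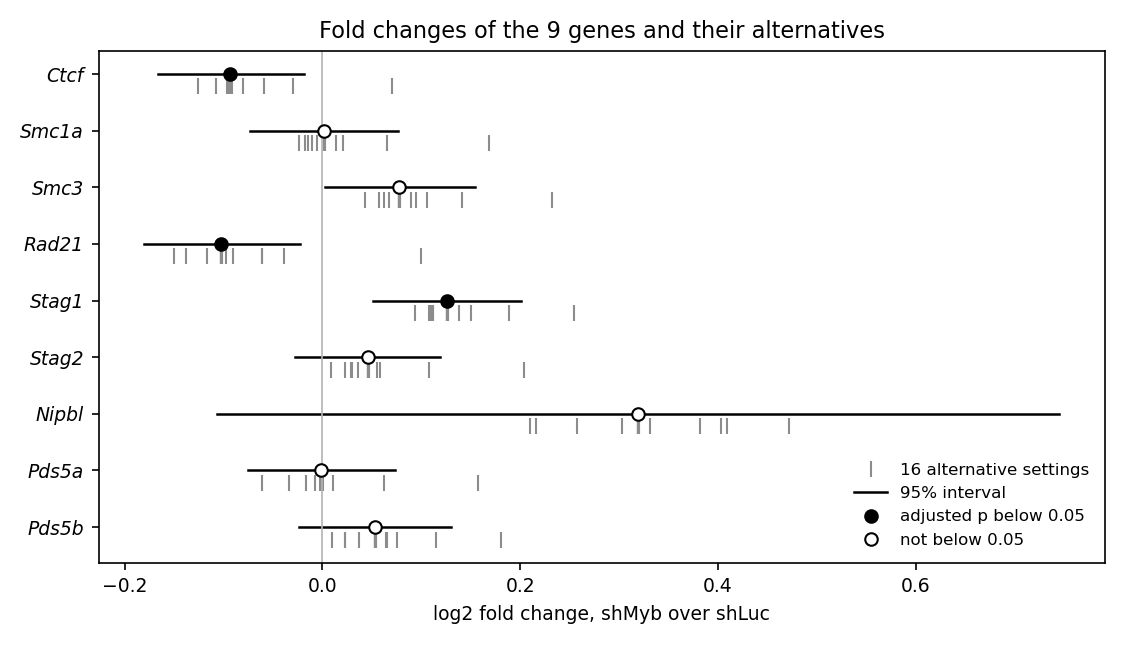
Log2 fold change of each gene, shMyb over shLuc (horizontal axis), with its 95% interval; filled points have an adjusted p below 0.05 and grey ticks are the 16 alternative settings. Smc3, Stag1, Stag2, Nipbl and Pds5b lie above 0 in all 16 settings. Ctcf and Rad21 stand at 0.07 and 0.10 after correction for expression level, where the median of all tested genes is 0.08.

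Per kb of exon, Rad21 was the most abundant of the 9 transcripts, at 132 ± 5.48 CPM per kb (SD, n = 2) in the libraries labelled shMyb and 141 ± 2.02 CPM per kb (SD, n = 2) in shLuc. Ctcf followed (79.3 and 84.6 CPM per kb), then Smc1a (72.2 and 72.1), Smc3 (66.2 and 62.7), Stag2 (47.0 and 45.6), Nipbl (42.7 and 34.2), Pds5b (23.7 and 22.9), Pds5a (19.7 and 19.7) and Stag1 (14.5 and 13.3). The order was the same in both groups. In the libraries labelled shMyb, Stag2 (47.4 and 46.7 CPM per kb) and Nipbl (39.8 and 45.6 CPM per kb) differed by about the SD of Nipbl (4.12), and the gaps between the other neighbours were wider than their SDs. With the length of the longest coding transcript, Pds5a (42.6 and 42.7) stood above Pds5b (31.5 and 30.4), and at the level of Nipbl in those labelled shMyb, so the place of Pds5a depends on which exons are counted.

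Ratios of paired genes within a library do not depend on a factor that scales the whole library. The corrections for expression level or for GC content and length act gene by gene and were not applied to them. The log2 ratio of Stag2 to Stag1 counts per kb was 1.68 and 1.71 in the libraries labelled shMyb and 1.78 and 1.77 in shLuc, a difference of -0.08. That of Rad21 to Smc3 was 1.07 and 0.92, against 1.16 and 1.19, a difference of -0.18. Smc3 relative to Smc1a was at -0.14 and -0.12, against -0.20 and -0.20, a difference of 0.08. Pds5a relative to Pds5b was at -0.29 and -0.25, against -0.23 and -0.21, a difference of -0.05. In these 4 ratios the groups did not overlap. Among single tested genes 82.1% did not overlap, and the share over gene pairs was not computed. In 2 against 2 libraries, no overlap is an exact two-sided permutation p of 0.333, the smallest this design allows (0.4 adjusted over the 6 ratios computed). Nipbl relative to Mau2, its loading partner, was at 1.22 and 1.41, against 1.30 and 1.17, and the groups overlapped (difference 0.08, exact permutation p = 0.667); without shMyb replicate 2 the difference was -0.02.

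**Figure D3:**
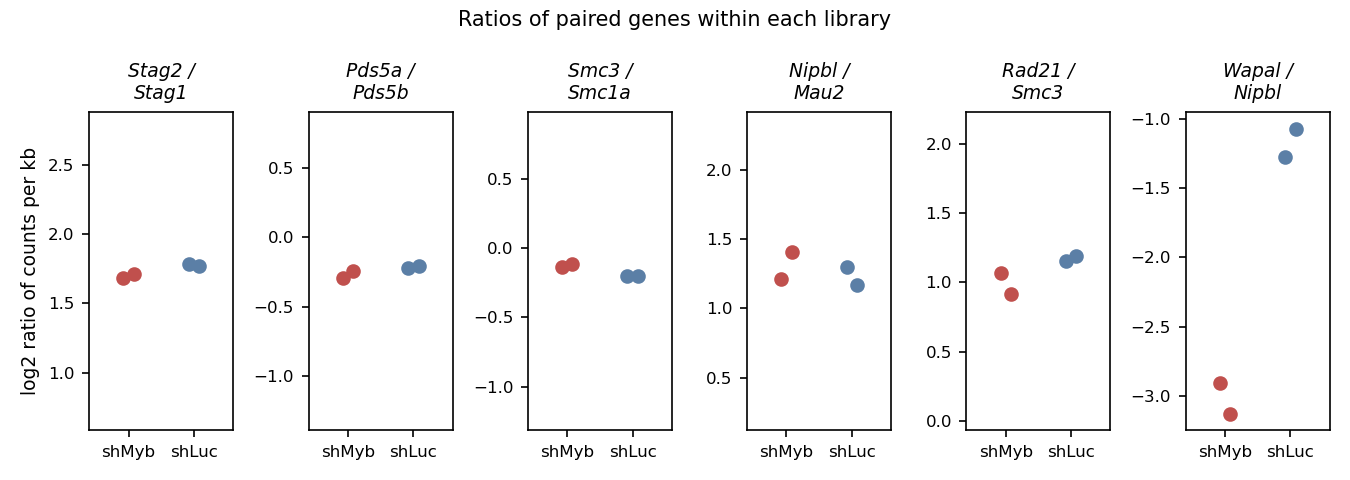
Log2 ratio of counts per kb of exon for 6 pairs of genes (vertical axes, all of the same span), 1 point per library, shMyb left and shLuc right. The ring and STAG ratios differ by 0.18 or less between the groups, while the ratio of Wapal to Nipbl is at -2.91 and -3.13 in shMyb and -1.28 and -1.08 in shLuc.

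Among the other genes that control the ring, the release factor stood apart. Wapal (current symbol Wapl; chromosome 14, 34673928 to 34747983, plus strand) encodes the protein that opens the ring and takes cohesin off chromatin. It was at 35.1 and 34.4 CPM in the libraries labelled shMyb, from 1367 and 1292 counts, and at 100.3 and 99.9 CPM in shLuc, from 4009 and 4354 counts. Wapal was therefore 2.88-fold lower (log2 fold change -1.53, SE 0.04, edgeR adjusted p = 6.2e-20), and 4.73% of tested genes had a larger change. It was called lower under all 16 alternatives, at -1.55 to -1.40. In mouse B cell progenitors Pax5 is known to repress this gene, which lets cohesin form longer loops. Pax5 was at 178 and 174 CPM, against 151 and 152 CPM (log2 fold change 0.21, adjusted p = 1.5e-05), a call that ended after the GC and length correction (0.08, adjusted p = 0.0577) and stood at 0.34 after the expression correction, and its part in the level of Wapal was not tested. The ratio of Wapal to Nipbl differed by -1.85 on the log2 scale (exact permutation p = 0.333, the smallest possible).

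Of the 10 genes for cohesin loading, release, acetylation and cleavage, 4 were called higher, 3 lower and 3 did not pass, at a median log2 fold change of 0.04, where 30.6% of all tested genes were called higher and 31.7% lower. Mau2, the partner of Nipbl in the loader, was at 157 and 157 CPM in the libraries labelled shMyb and 136 and 129 CPM in shLuc (0.24, SE 0.04, adjusted p = 5.6e-06) and was called higher under all 16 alternatives, at 0.17 to 0.37. Pttg1, the securin that holds back the cohesin-cleaving protease, was at 11.5 and 12.0 CPM, against 16.7 and 18.5 CPM, and fell by 0.59 (adjusted p = 2.4e-07). The acetyltransferase genes Esco1 (0.14) and Esco2 (0.11) and the protease gene Espl1 (0.09) were called higher, and Cdca5, which encodes sororin, fell by 0.13. Hdac8 (0.04), Sgol1 (-0.05) and Sgol2 (0.04) did not pass. Without shLuc replicate 1 the counts were 1 higher and 3 lower, and without shLuc replicate 2 they were 1 and 2; without shMyb replicate 2 they were 2 and 3, and with DESeq2 2 and 2. With library totals they were 5 and 2, and after the expression correction 6 and 2.

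Of 16 CTCF partners and other architectural factors, 4 were called higher, 4 lower and 8 did not pass (median log2 fold change 0.00), beside 62.2% of all tested genes called. Parp1, a DNA-damage polymerase that can modify CTCF, was at 538 and 535 CPM in the libraries labelled shMyb and 711 and 733 CPM in shLuc, and fell by 0.43 (adjusted p = 3.3e-10). The remodelling genes Bptf and Chd8 were higher, Bptf at 429.7 and 455 CPM against 370.2 and 351 CPM (0.30, adjusted p = 4.8e-07) and Chd8 at 301 and 313 CPM against 273 and 258 CPM (0.21, adjusted p = 3.7e-05). After the GC and length correction both Bptf and Chd8 stood at 0.08, and after the expression correction Parp1 stood at -0.22, Bptf at 0.46 and Chd8 at 0.35, all called. The balance of the list depends on the scaling, at 8 higher and 3 lower with library totals, 11 and 1 after the expression correction, and 3 and 7 after the GC and length correction.

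The other SMC complexes were measured alongside. Condensin, which compacts mitotic chromosomes, had 0 of 8 genes called higher and 2 called lower (30.6% and 31.7% of all tested genes), with the others from -0.08 to 0.07. Ncapg2 was at 224 and 218 CPM in the libraries labelled shMyb, against 256 and 249 CPM in shLuc, and fell by 0.19 (adjusted p = 6.6e-05), and Ncapg fell by 0.10 (adjusted p = 0.0146). After the expression correction Ncapg2 was at -0.06 (adjusted p = 0.144) and Ncapg at 0.02, 4 condensin genes were called higher and 0 lower; library totals gave 2 and 1, and the count of lower genes was 3 without shMyb replicate 1 and 1 without shMyb replicate 2 or shLuc replicate 2. The SMC5/6 complex, which acts in DNA repair, had 2 of 9 genes called higher and 3 lower, shares near those of all tested genes (30.6% and 31.7%). Nsmce1 was at 63.7 and 58.6 CPM, against 47.4 and 44.3 CPM (0.42, adjusted p = 9.8e-08), while Ndnl2 (current symbol Nsmce3) fell by 0.33 and Nsmce4a by 0.25. Nsmce4a was at -0.12 after the expression correction and -0.16 after the GC and length correction, both called. That balance was 4 higher and 2 lower after the expression correction, and 1 gene was called higher without shMyb replicate 2 or shLuc replicate 2.

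Of the meiotic relatives, Rad21l had 0 counts in all libraries, Smc1b 1 count and Ctcfl 3 counts in all. Rec8 had 8 and 16 counts in the libraries labelled shMyb against 27 and 35 in shLuc (log2 fold change -1.23, adjusted p = 0.00888), and the call ended with DESeq2 and without shLuc replicate 2 or shMyb replicate 1. Stag3 stood at 0.72 and 0.98 CPM, against 0.32 and 0.21 CPM (1.68, adjusted p = 6.2e-04). Both are present at under 1 CPM.

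**Figure D4:**
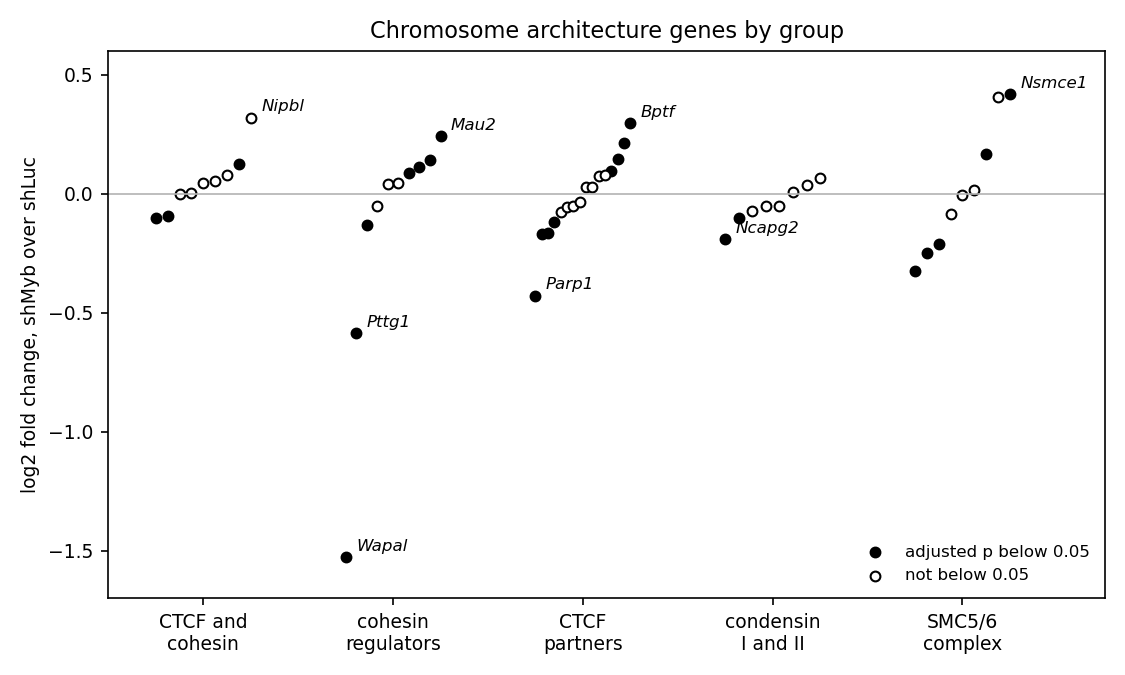
Log2 fold change, shMyb over shLuc (vertical axis), of the 9 CTCF and cohesin genes and of 4 groups of related genes, 1 point per tested gene; filled points have an adjusted p below 0.05. Most genes lie within 0.25 of 0, and Wapal stands at -1.53, away from the rest of its group.

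Genes that mark dividing cells were counted beside the 9 genes. Of 22 proliferation markers 18 were called lower and 2 higher (31.7% and 30.6% of all tested genes), at a median log2 fold change of -0.20, against 0.05 for the CTCF and cohesin genes; after the expression correction 7 were lower and 2 higher, and without shMyb replicate 2 the counts were 16 and 1. The 9 genes include the ring subunits that dividing cells need, and the part of cell cycle position in their levels was not tested.

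Genes around Wapal were examined after its value was seen. Within 400 kb on either side, 13 genes of the tables were annotated and 5 passed the filter on low counts. Of these, Wapal and Bmpr1a fell and 3 did not pass, where 31.7% of all tested genes were called lower. Wapal is itself the gene around which the window was set. Bmpr1a, a receptor for bone morphogenetic proteins on the opposite strand, has its start site 170.6 kb before that of Wapal; it was at 10.6 and 10.8 CPM in the libraries labelled shMyb and 55.2 and 55.5 CPM in shLuc (log2 fold change -2.37, SE 0.06, adjusted p = 4.6e-21). Farther on the same side, Glud1, which encodes glutamate dehydrogenase, was at 245 and 232 CPM, against 233 and 233 CPM (0.04, adjusted p = 0.409), and Fam35a at 23.0 and 24.3 CPM, against 22.8 and 23.2 CPM (0.04, adjusted p = 0.556). The genes between Bmpr1a and Wapal and those after Wapal stayed at or under 0.16 CPM.

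**Figure D5:**
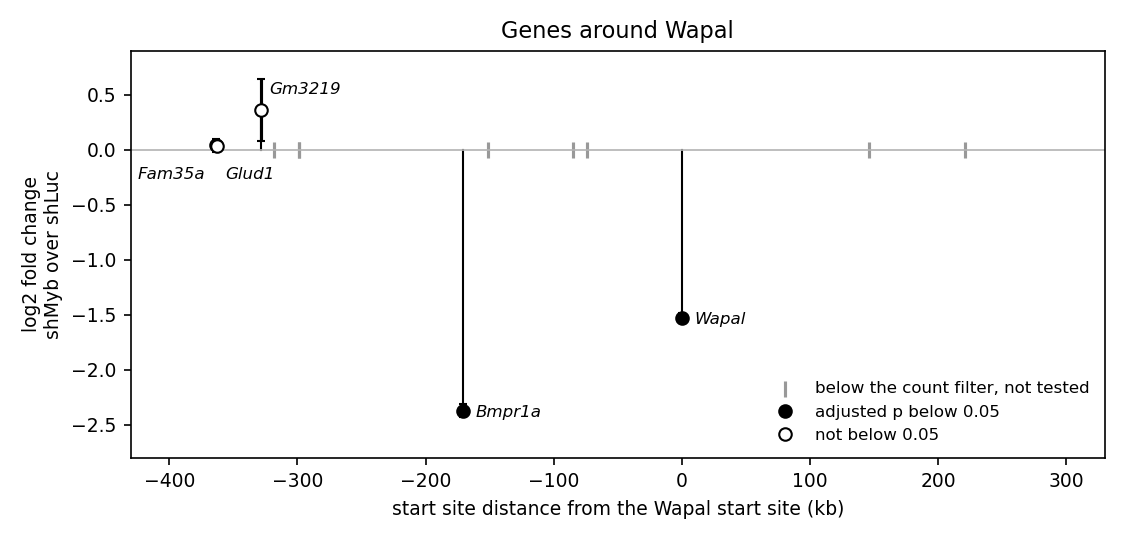
Log2 fold change, shMyb over shLuc (vertical axis, with SE), of tested genes by the distance of their start site from that of Wapal in kb (horizontal axis); grey ticks are genes below the count filter. Bmpr1a and Wapal stand at -2.37 and -1.53, while Glud1, Fam35a and Gm3219 are at or above 0.04.

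The genes whose level over the 4 libraries was most like that of Ctcf were Clpx, Tbp and Srpr, at Euclidean distances of 0.0074 to 0.0076 on mean-centred log2 CPM among 8286 coding genes. Clpx was at 58.4 and 58.6 CPM in the libraries labelled shMyb and 62.3 and 62.9 CPM in shLuc. For Smc3 the nearest were Slk, Usp30 and Fgfr1op, at 0.0099 to 0.0145, with Slk at 182 and 189.6 CPM, against 177 and 176 CPM.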

How the data were processed

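RNA-seq was done on 2 shMyb and 2 shLuc libraries. The deposited files hold the authors' raw counts per gene symbol. FastQC, STAR, HTSeq, DESeq2 and mm10 appear in the submitters' processing notes, with no versions or roles. The sources used here give no annotation or strand setting, so overlapping opposite-strand genes may share reads. In all, 27 symbols had been turned into dates. Of the 50-base words of the longest coding transcript, 1.56% of those of Smc3 and 2.62% of those of Pds5a also occur in other annotated transcripts, and 0 for the other members.

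The test was edgeR 4.0.16 (R 4.3.3), with filterByExpr at a minimum count of 10 (12610 of 16832 genes with a count), TMM scaling, glmQLFit (robust=TRUE) and glmQLFTest on group. Benjamini-Hochberg adjustment ran across the 12610 genes, with calls below 0.05. The SE is the size of the log2 fold change over the square root of F. CPM per kb uses the union of GENCODE M21 exons (GRCm38), as do the 1-based coordinates. The spread between replicate sets of wells, beyond counting noise, came to 2.9% (edgeR common coefficient of variation). Replicates differed by more than counting noise (chi-square per degree of freedom 4.24 in shMyb and 3.81 in shLuc). A count of 0 allows up to 3 counts (0.0689 to 0.0799 CPM), for counting error only. The procedure was tested on simulated data in which a small share of genes changed, in random directions. That setting does not cover changes as widespread as here, where 62.2% of tested genes were called.

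The members and lists were chosen with earlier results of these data known. Named genes are the members, Myb, up to 3 called genes per list with the largest change and at least 5 CPM, the 3 patterns nearest to Ctcf and to Smc3, and genes overlapping a member. Other list members, markers, Pax5 and the rare meiotic genes are named to account for their lists and were chosen after their values were seen. Malat1 and Neat1 were picked by name and follow none of these rules. Alternatives were no low-count filter, RLE scaling, at least 1 CPM in 2 libraries, library totals, DESeq2 1.42.0, robust=FALSE, voom (limma 3.58.1), the replicate block and its crossed form, each library left out, a threshold of 0.01, and loess offsets for expression level or for GC content and length.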

Additional observations from a re-analysis of the deposited data

How the results depend on the processing

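Genes called numbered 7849, and 6028 to 8593 over the alternatives, within 1.5 times. The genes of the 5 pathway lists called were 24, and 16 to 32. The count of the 9 genes called higher was 1; it was 2 without a low-count filter, with the 1 CPM filter, robust=FALSE, DESeq2, limma-voom or the replicate block, 3 after the GC and length correction, 4 with library totals, 7 after the expression correction, and 1 to 2 when a library was left out (2 without either shMyb library). The count called lower was 2; it was 0 with library totals, the replicate block, either correction or an adjusted p below 0.01, and 0 to 2 when a library was left out (1 without shMyb replicate 1, 0 without shMyb replicate 2 or shLuc replicate 2). The median log2 fold change of all tested genes was 0.07 with library totals and 0.08 after the expression correction, and that of the 9 genes 0.11 and 0.18; the split of all calls was 3855 higher and 3994 lower, 4667 and 3102 with library totals, and 4816 and 2590 after the expression correction. The cause of these shifts was not tested. Myb was called higher with library totals (0.11), after the expression correction (0.26) and after the GC and length correction (0.078), and was at 0.02 to 0.07 when a library was left out. Values near 0 turned sign without a call: Smc1a at -0.014 without a low-count filter, -0.005 after the GC and length correction and -0.024 to 0.021 without single libraries; Pds5a at 0.000 with RLE scaling and DESeq2, 0.011 with the 1 CPM filter, 0.062 with library totals and -0.034 to 0.001 without single libraries. With the expression correction Pds5a (0.16) and Rad21 (0.10) were called higher, and Ctcf (0.07) and Ncapg (0.025) turned without a call. Ratios without single libraries ran from -0.10 to -0.06 (Stag2 to Stag1), -0.08 to -0.03 (Pds5a to Pds5b), 0.07 to 0.09 (Smc3 to Smc1a), -0.26 to -0.10 (Rad21 to Smc3), -0.017 to 0.175 (Nipbl to Mau2) and -1.96 to -1.73 (Wapal to Nipbl), and a ratio without length or with the longest transcript gives the same difference by construction. A fit without 1 library leaves a lone library, assumed to vary like the others. Same-numbered libraries deviated in opposite directions (r = -0.343 over 8645 genes), and no label ties equal numbers to a shared batch or day. Under the replicate block the calls of Ctcf and Rad21 ended and Nipbl was called; a block with crossed numbers, chosen after seeing the data, gave 8593 calls, 3 of the 9 genes higher and 2 lower.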
